A study of Mus musculus with 22 samples.

Results

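Levels of 42 genes that encode the scaffold, adhesion and calcium-signalling proteins of the postsynaptic side of synapses were compared across 6 mouse brain cell types. The genes were listed by symbol for their known function, with earlier results of these data known. Counts of these genes set beside the share of all genes are therefore descriptions. All 42 were found among the 55385 genes in the tables. RNA bound to tagged ribosomes was sequenced from 6-week-old mice that carried 1 floxed copy of Rpl22 (Rpl22 Fl/+), a gene of the large ribosomal subunit. Where Cre had acted, that copy added an HA epitope to the ribosome, and HA-tagged ribosomes were pulled from tissue lysate together with the mRNAs they were translating. Every group, glia included, carried this allele and a Cre driver, so no group was free of tagged ribosomes. Dentate gyrus granule cells of the hippocampus and layer V neurons of the cortex were both tagged by Rbp4-Cre, and cerebellar granule cells by Gabra6-Cre. Inhibitory interneurons of the hippocampus were tagged by Dlx6a-Cre, and each of their libraries pooled 2 mice. Cortical astrocytes were tagged by the driver labelled Aldh1-cre and cortical microglia by Tmem119-cre, both of which are induced with tamoxifen. Each cell type had 3 replicate libraries, 18 in all, with 38270477 to 71440915 estimated counts per library.

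At an excitatory synapse, glutamate receptors are held opposite the release site by layers of scaffold proteins. PSD-95 and its relatives (Dlg genes) bind receptors, Dlgap proteins link them to Shank proteins, and Shank proteins bind Homer, which reaches metabotropic receptors and calcium stores. Calcium that enters through the receptors binds calmodulin, which activates the CaMKII kinases and the phosphatase calcineurin, and neurogranin (Nrgn) holds calmodulin at low calcium. Adhesion proteins such as the Lrrtm and Slitrk families span the cleft to presynaptic partners, and gephyrin (Gphn) is the scaffold of inhibitory synapses.

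The cell types were checked by marker genes. Sums of marker TPM (a level corrected for library size and transcript length) were highest in the labelled type for dentate gyrus granule cells, cerebellar granule cells, interneurons, astrocytes and microglia. For layer V neurons, Fezf2 was highest in its own type at 85.5 TPM, whereas the sum over Fezf2, Bcl11b, Rbp4 and Bcl6 was higher in dentate gyrus granule cells (290 to 320) than in layer V neurons (201 to 208). Glial libraries held neuronal RNA. The level of Snap25, Syt1, Rbfox3 and Slc17a7 was 10.3% to 18% of the layer V level in astrocytes and 3.91% to 14% in microglia. Interneuron libraries held the highest level of the oligodendrocyte marker Mbp, with a mean of 1184 TPM against means of 65.2 to 477 TPM in the other types. All interneuron and microglia libraries came from sequencing batch 2 and the other 12 from batch 1, so in these 18 libraries batch and cell type cannot be told apart there. In 4 replicates that were sequenced in both batches, 42 of 42 genes were within 2-fold of each other on log2(TPM + 1).

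The 42 genes together made up 1.65% to 1.83% of all TPM in dentate gyrus granule cells and 1.28% in each layer V neuron library. The share was 0.609% to 0.622% in cerebellar granule cells, 0.487% to 0.508% in interneurons, 0.276% to 0.333% in astrocytes and 0.19% to 0.213% in microglia. Without Nrgn, the order of the types stayed, with 1.33% to 1.44% in dentate gyrus granule cells and 0.767% to 0.799% in layer V neurons. Dentate gyrus granule cells had the highest mean of the 6 types for 25 of the 42 genes, and for 23 of these the 3 libraries lay above every library of the next type. Cerebellar granule cells led for 10 genes, layer V neurons for 4 and interneurons for 3, and no gene had its highest mean in glia. The lowest mean lay in microglia for 24 genes and in cerebellar granule cells for 14. The same counts were not made over all genes, so they describe the 42 genes only. These values are shares of each library's RNA, which can include RNA of other cells of the tissue, and the part of that RNA was not tested.

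**Figure D1:**
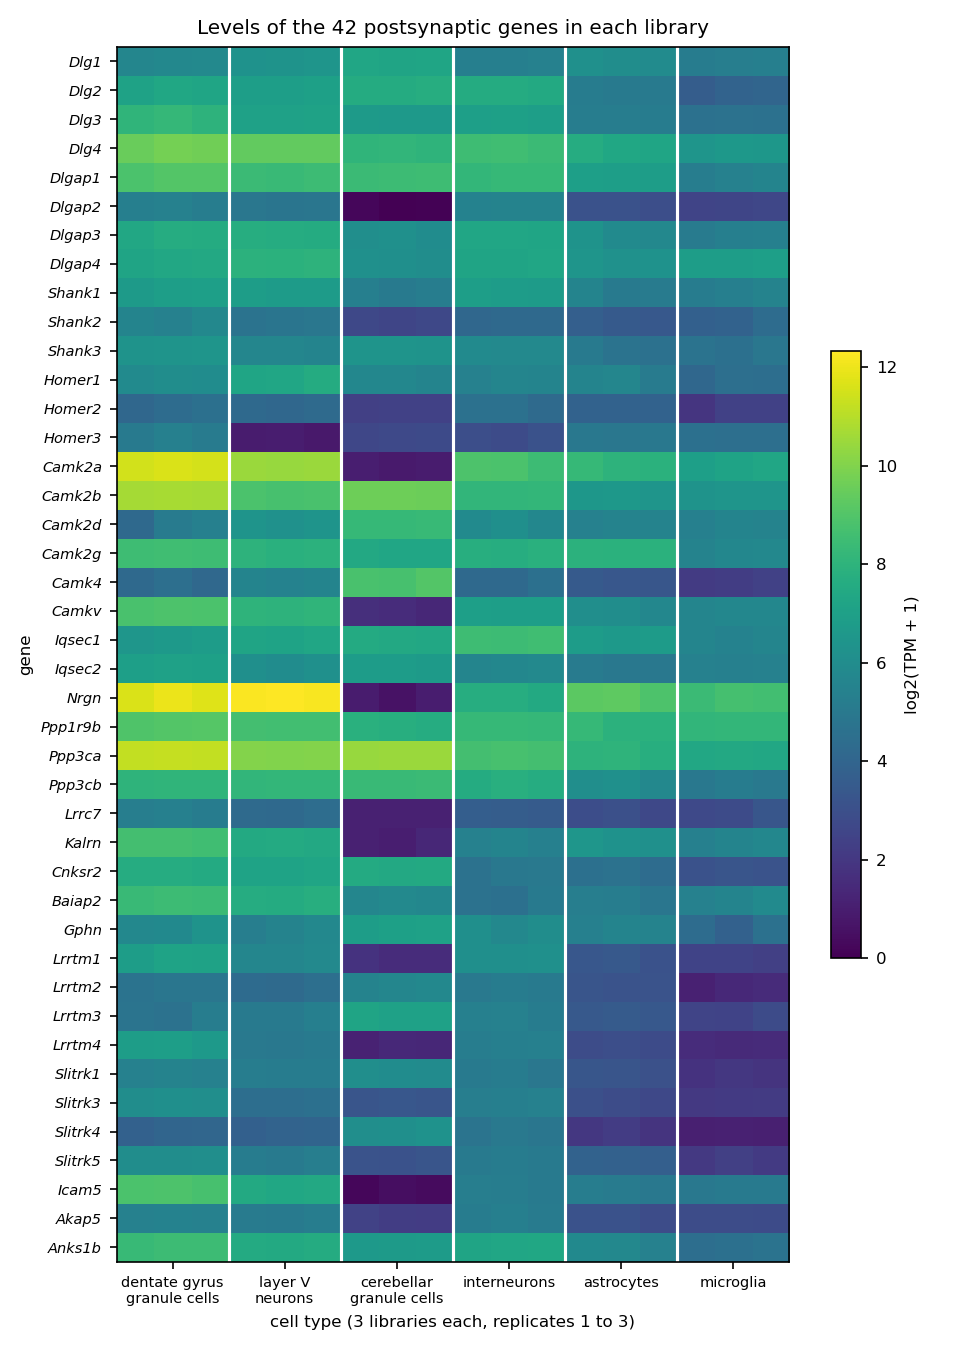
Heat map of log2(TPM + 1) for the 42 genes (rows) in 18 libraries (columns, 3 per cell type). Dentate gyrus granule cells hold the highest mean for 25 genes, and in cerebellar granule cells a group of genes including Nrgn, Camk2a, Dlgap2 and Icam5 is near 0 in each of the 3 libraries.

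Neurons and glia used different coding exons of several of these genes. Each table lists transcripts separately, so the share of TPM in transcripts that hold an exon could be set against that in transcripts that skip it. This was done for 65 internal coding exons of 18 genes whose spanning transcripts averaged at least 5 TPM in each cell type. For 9 exons in 5 genes, the mean of the 4 neuronal types and the mean of the 2 glial types differed by at least 25 percentage points, with no overlap between the 12 neuronal and 6 glial libraries. The exons were picked for that difference, so the shares are a description with no test. They also rest on kallisto's division of reads among transcripts that share most of their sequence. Exons of the same gene can lie in the same transcripts, so the 9 shares are not independent of each other.

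The 9 exons are shown because they are what differed. Sequences were read from GRCm38 on the coding strand, 5′ to 3′, with the exon in capitals and 10 bases of flanking intron in lower case.
Dlg1 100-base exon, chr16:31846824-31846943, plus strand: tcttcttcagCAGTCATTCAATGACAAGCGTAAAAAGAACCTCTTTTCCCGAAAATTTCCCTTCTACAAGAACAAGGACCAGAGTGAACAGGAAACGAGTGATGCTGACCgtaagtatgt
Dlg1 34-base exon, chr16:31847626-31847679, plus strand: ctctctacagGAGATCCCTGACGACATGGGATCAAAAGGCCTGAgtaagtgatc
Dlg3 100-base exon, chrX:100808043-100808162, plus strand: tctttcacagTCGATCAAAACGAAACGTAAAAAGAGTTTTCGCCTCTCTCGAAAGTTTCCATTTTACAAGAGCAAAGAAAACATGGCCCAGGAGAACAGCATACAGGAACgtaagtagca
Dlg3 46-base exon, chrX:100809852-100809917, plus strand: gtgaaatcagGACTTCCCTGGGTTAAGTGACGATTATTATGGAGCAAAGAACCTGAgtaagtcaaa
Dlg3 42-base exon, chrX:100811492-100811553, plus strand: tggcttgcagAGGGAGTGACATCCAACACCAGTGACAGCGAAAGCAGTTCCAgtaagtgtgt
Camk2d 60-base exon, chr3:126805847-126805926, plus strand: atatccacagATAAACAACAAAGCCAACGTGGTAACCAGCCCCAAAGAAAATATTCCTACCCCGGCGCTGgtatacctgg
Camk2d 42-base exon, chr3:126808198-126808259, plus strand: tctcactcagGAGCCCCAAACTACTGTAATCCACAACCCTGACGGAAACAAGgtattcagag
Camk2g 33-base exon, chr14:20747809-20747861, minus strand: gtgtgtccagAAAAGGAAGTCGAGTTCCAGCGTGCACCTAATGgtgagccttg
Iqsec2 50-base exon, chrX:152222273-152222342, plus strand: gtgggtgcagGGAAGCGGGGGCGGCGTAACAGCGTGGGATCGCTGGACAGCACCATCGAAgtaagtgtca
Each exon is preceded by ag and followed by gt in the intron. The 100-base exons of Dlg1 and Dlg3, laid side by side without gaps, were identical at 49 of 100 positions. Lengths of the exons of Camk2d and Camk2g (60, 42 and 33 bases) and of the 42-base exon of Dlg3 keep the reading frame.

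In Dlg1 (SAP97) and Dlg3 (SAP102), scaffolds related to PSD-95, shares of neighbouring exons ran opposite ways between glia and neurons. In either gene, 1 measured transcript held the 100-base exon and 1 skipped the exon after it. The opposite shares of such a pair are therefore not independent results. Transcripts with the 100-base exon of Dlg1 made up 49.4%, 51% and 51.1% of spanning TPM in the 3 astrocyte libraries and 70.8%, 64.4% and 70% in the microglia libraries. In the 12 neuronal libraries the share ran from 2.31% to 22.9%, with interneurons highest among neurons at a mean of 21%. Their libraries also held the most Mbp, and the part of oligodendrocyte RNA in this share was not tested. The 34-base exon of Dlg1 ran the other way, from 77.1% to 97.7% in neurons and from 37% to 56.6% in glia. The 100-base exon of Dlg3 was in 0% to 1.73% of spanning TPM in neurons, 35.1%, 30.9% and 28.3% in the astrocyte libraries and 65.7%, 73.9% and 60.4% in the microglia libraries. Its 46-base exon took the remainder, and the 42-base exon that follows was in 38.4% to 48% in neurons and 60.1% to 85.7% in glia. Spanning transcripts of Dlg3 summed to 11.8 to 21.7 TPM in glia, so the glial shares rest on low levels.

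The CaMKII genes vary in the linker that joins the kinase part to the part that assembles the holoenzyme. In Camk2d, the 60-base exon was in 92.6% to 97.6% of spanning TPM in neurons, 51.8% to 63.6% in astrocytes and 26.8% to 54.7% in microglia, with microglia replicate 1 the highest of its type. The 42-base exon of Camk2d was in 93.9% to 98.9% in neurons and 56.9% to 68.8% in glia. In Camk2g, the 33-base exon was in 55% to 74.6% in neurons, and in 25.4%, 25.8% and 23.9% in astrocytes, where spanning Camk2g transcripts reached 213 to 221 TPM. Microglia stood between, at 29.6% to 40.1%. The 50-base exon of Iqsec2, which encodes an exchange factor for the small GTPase ARF6, was in 87.5% to 97% in neurons, 65.8% to 73.9% in astrocytes and 45.4% to 51.5% in microglia. Interneurons, sequenced in batch 2 with the microglia, lay with the batch 1 neurons for the exons of Dlg3, Camk2d, Camk2g and Iqsec2. For the 100-base and 34-base exons of Dlg1 they lay between the batch 1 neurons and glia, at means of 21% and 79.1%. The part of batch in these shares was not tested. The neuronal RNA in the glial libraries was measured above, and its part in the glial shares was not tested.

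**Figure D2:**
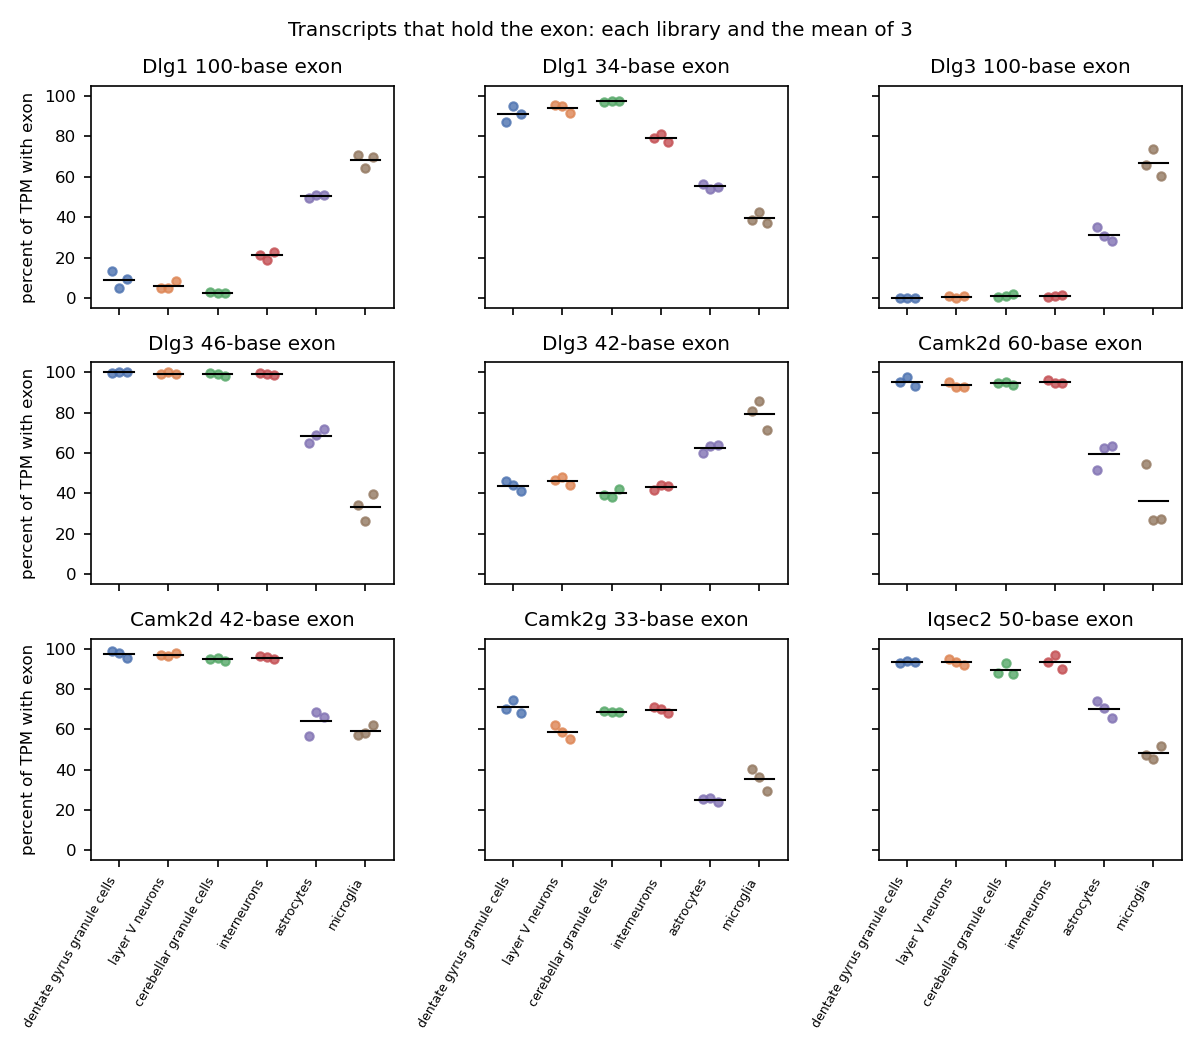
Percent of the TPM of spanning transcripts that holds each of 9 exons, one panel per exon, in each library (points) with the mean of 3 (line) for 6 cell types. In every panel the 6 glial libraries lie apart from the 12 neuronal ones, for example 23.9% to 40.1% against 55% to 74.6% for the 33-base exon of Camk2g.

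More of the 42 genes were called in cerebellar granule cells than in any other neuronal type, and more of all genes tested were called there too. Against the mean of the 3 other neuronal types, 20 genes were lower and 7 higher at an adjusted p of at most 0.05 and at least 2-fold (edgeR quasi-likelihood test, Benjamini-Hochberg adjustment over 20524 genes). Of all genes tested, 29.1% were called lower and 14.5% higher in the same comparison, and the share called higher among the 42 was close to the latter. A further 7 genes were higher and 4 lower by less than 2-fold, and 4 were not called. Libraries did not overlap for 19 of the 20 lower and 6 of the 7 higher genes, and overlap was not counted over all genes called. The median log2 fold change was -0.81 over the 42 genes and -0.21 over all genes tested.

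Nrgn and Camk2a, abundant in layer V neurons, were near 0 in cerebellar granule cells. Nrgn was at 0.942, 0.531 and 0.97 TPM in the 3 cerebellar granule cell libraries, and at 4977, 5181 and 4788 TPM in layer V neurons. Camk2a, which encodes the alpha subunit of CaMKII, was at 1.03, 0.873 and 0.915 TPM in cerebellar granule cells and at 2846, 3188 and 3012 TPM in dentate gyrus granule cells. Neither gene's cerebellar libraries came near those of any other cell type. The log2 fold change was -10.73 ± 0.16 (SE, adjusted p = 2.24e-19, edgeR) for Nrgn and -10.34 ± 0.17 (SE, adjusted p = 5.54e-19) for Camk2a. Dlgap2 followed at -9.73 ± 0.12 (SE, adjusted p = 3.31e-20), Icam5, a telencephalic dendrite adhesion protein, at -8.96 ± 0.15 (SE, adjusted p = 9.95e-19), and Camkv, a kinase-like protein without kinase activity, at -7.15 ± 0.08 (SE, adjusted p = 9.41e-21). Kalrn, which encodes kalirin, a signalling protein of dendritic spines, was at 1.27 TPM against 43.3 to 392 TPM in the other neurons (log2 fold change -6.63 ± 0.11, SE, adjusted p = 3.62e-19). These folds rest on few reads on the cerebellar side, 13 estimated counts in 3 libraries for Dlgap2, 75 for Icam5, 103 for Nrgn and 396 for Camk2a. Their SE was derived from the test statistic and can be too small for such low counts.

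The other genes called lower came from each layer of the scaffold and from adhesion. Lrrc7 (densin-180) averaged 1.19 TPM in cerebellar granule cells, Lrrtm1 2.17, Lrrtm4 1.51 and Akap5 (AKAP79/150, which anchors protein kinase A and calcineurin) 3.89, each against at least 11.4 TPM in every other neuronal type. Shank2, Slitrk5, Slitrk3, Homer2, Shank1, Dlgap4, Dlgap3, Baiap2 (IRSp53), Dlg4 (PSD-95) and Anks1b (AIDA-1) made up the rest, with log2 fold changes from -2.42 to -1.07. For Baiap2 the call did not separate libraries, since interneurons were lower still at 26.2 TPM against 52.2 TPM.

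Other genes of these families were higher in cerebellar granule cells. Camk4, which encodes the calmodulin kinase that acts in the nucleus, was at 447, 429 and 518 TPM in cerebellar granule cells and between 16.9 and 46.1 TPM in the other neurons (log2 fold change 4.21 ± 0.07, SE, adjusted p = 4.3e-19, edgeR). Camk2d was at 305, 305 and 319 TPM against 17.5 to 82.6 TPM (2.65 ± 0.11, SE, adjusted p = 3.44e-13). Slitrk4 (2.11 ± 0.07, SE, adjusted p = 6.41e-15) and Lrrtm3 (2.10 ± 0.06, SE, adjusted p = 2e-15) were higher as well. So were Dlg1 at 1.36 ± 0.03 (SE, adjusted p = 8.82e-17) and Gphn at 1.10 ± 0.04 (SE, adjusted p = 3.24e-14). The remaining call was Cnksr2, a scaffold of the Ras pathway, at 180 TPM, which was close to dentate gyrus granule cells (195 TPM) and layer V neurons (147 TPM), with interneurons low at 28.2 TPM.

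**Figure D3:**
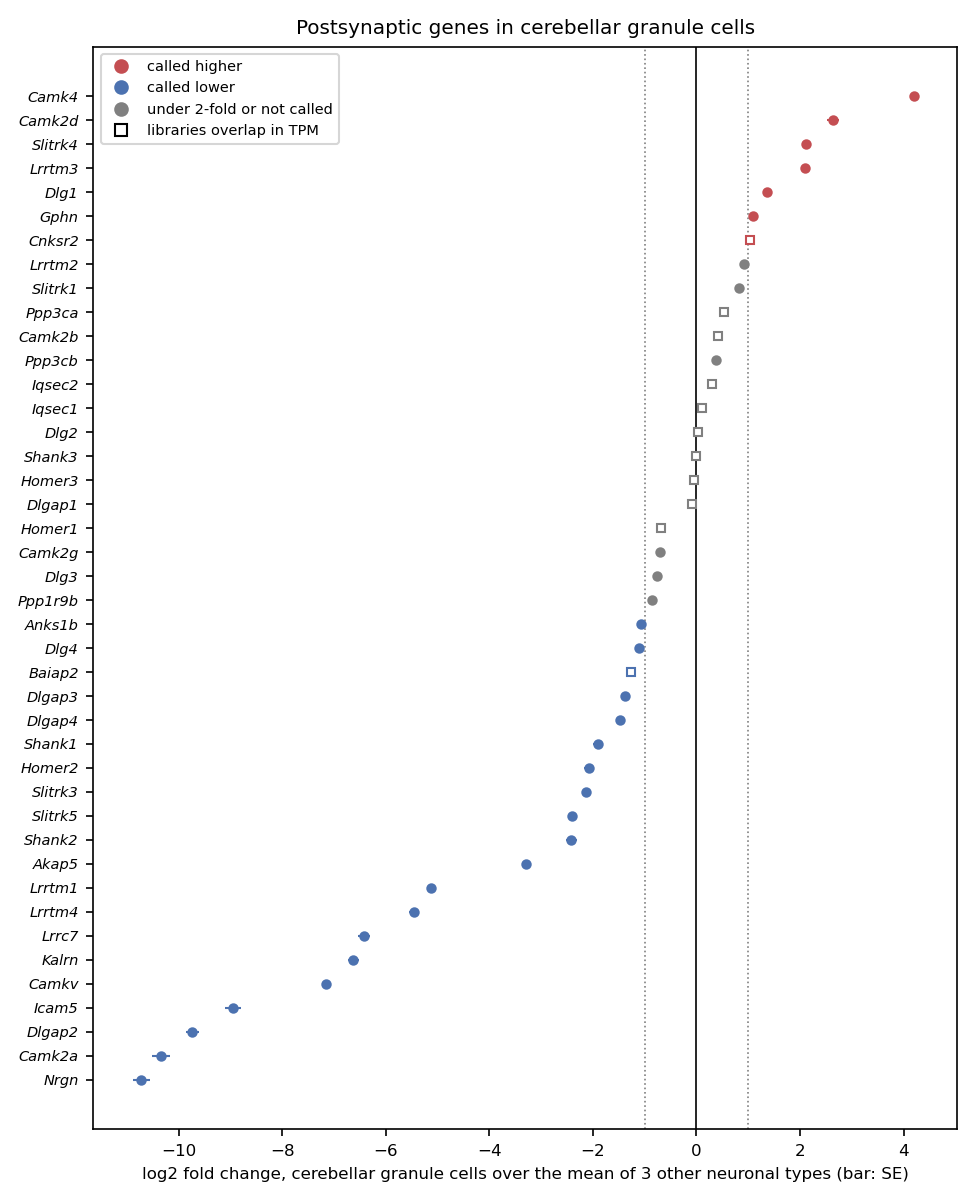
Log2 fold change (x axis, bars are SE) of 42 genes in cerebellar granule cells over the mean of 3 other neuronal types, ordered by size, with dotted lines at 2-fold. The 20 genes called lower reach -10.73 for Nrgn, and the 7 called higher reach 4.21 for Camk4.

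The make-up of the gene families differed among neuronal types. The 4 CaMKII genes summed to 1247 TPM in cerebellar granule cells, between layer V neurons (2188) and interneurons (983). Camk2b made up 62.2% ± 0.58 (SD, n = 3) of this sum and Camk2d 24.9% ± 0.84, whereas Camk2a held 0.0754%. In layer V neurons Camk2a held 65% ± 0.59 (SD, n = 3) and Camk2d 3.63%. Of the Lrrtm family sum, Lrrtm3 held 72.1% ± 2.4 (SD, n = 3) and Lrrtm2 25.9% in cerebellar granule cells, while Lrrtm1 and Lrrtm4 together led in dentate gyrus granule cells with 44.1% and 37.1%. Of the Slitrk sum, Slitrk4 held 46.7% and Slitrk1 42.2% in cerebellar granule cells, against 7.67% and 22.4% in dentate gyrus granule cells. Shank3 took 66.3% of the Shank sum there and 26% to 33.6% in the other neurons, at 81.3 TPM for Shank3, 36.2 TPM for Shank1 and 5.23 TPM for Shank2. Dlg4 held 37.2% of the Dlg sum in cerebellar granule cells against 50.4% to 66.4% in the other neurons. Dlgap1 held 72% of the Dlgap sum. TPM is per length, so these shares compare genes, and they carry no test. Gene sums, here and elsewhere, include transcripts without an annotated coding sequence, so they are not levels of coding mRNA alone. Such a transcript held 44.2% of Dlg2 TPM in cerebellar granule cells, 54.5% of Dlg3 in layer V neurons and 41.6% of Iqsec2 in interneurons.

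**Figure D4:**
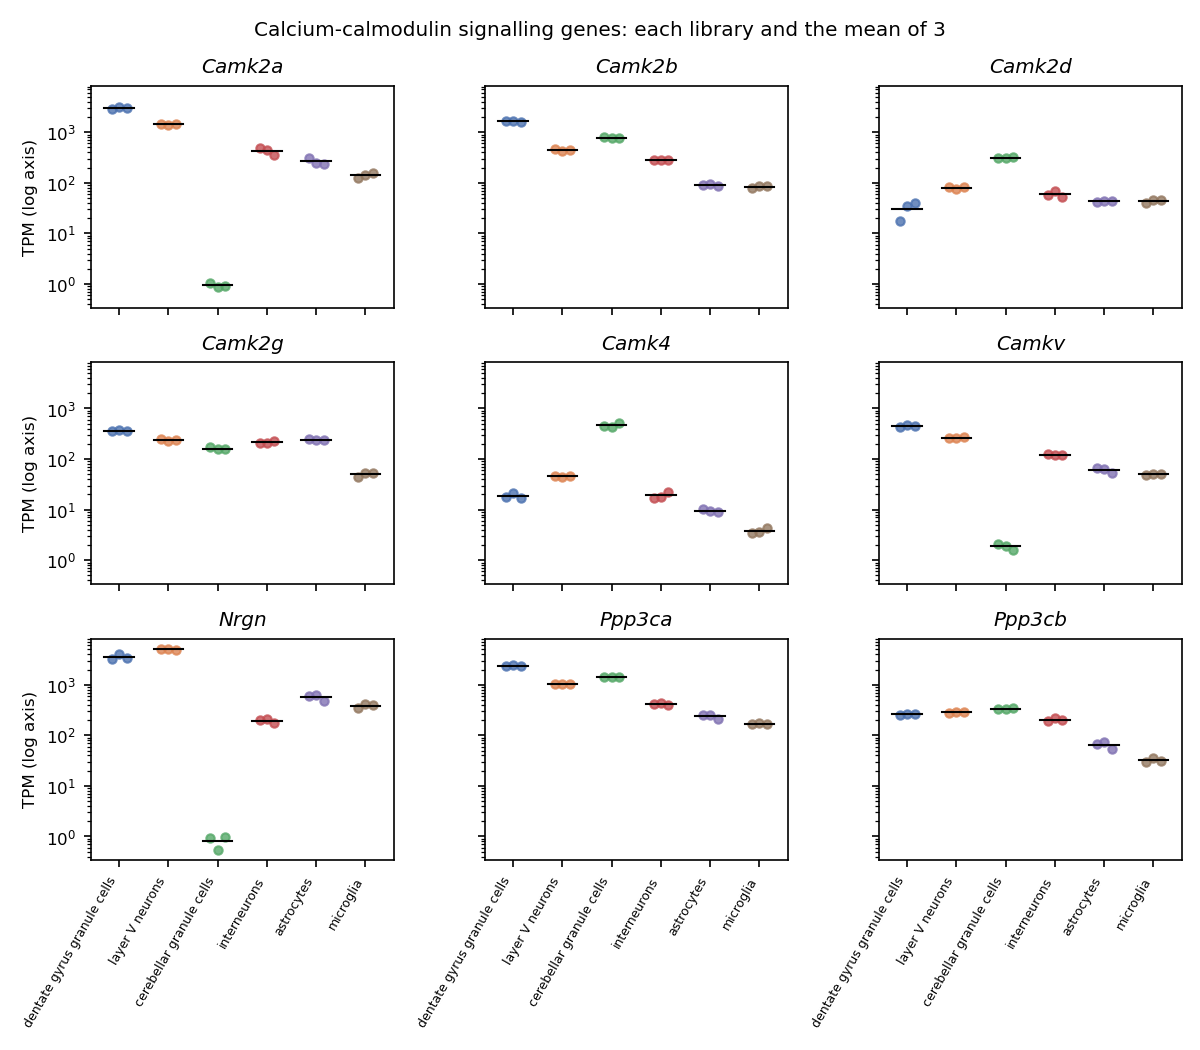
TPM (log axis) of 9 calcium-calmodulin signalling genes in each library (points) with the mean of 3 (line) for 6 cell types. Camk2a, Camkv and Nrgn drop to 0.814 to 1.89 TPM in cerebellar granule cells, where Camk4 (465 TPM) and Camk2d (310 TPM) are highest.

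Dentate gyrus granule cells carried the highest levels of Camk2a, Camk2b, Camk2g and Ppp3ca. Against the mean of the 3 other neuronal types, 20 genes were called higher and 4 lower (edgeR, at least 2-fold), where 17% and 8.59% of all genes tested were called. The mean of the other types includes cerebellar granule cells, and against layer V neurons and interneurons alone the counts were 17 and 1, with 11.7% and 13% of all genes called. Ppp3ca, the main catalytic subunit of calcineurin in brain, was at 2366, 2456 and 2353 TPM, and the next type, cerebellar granule cells, reached 1427 TPM. Camk2b was between 1610 and 1698 TPM, and its next type reached 789 TPM. In both genes the dentate gyrus libraries lay above every other library.

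Among genes without overlap, the log2 fold change was 5.17 ± 0.08 (SE, adjusted p = 1.04e-18, edgeR) for Icam5, 5.14 ± 0.09 (SE, adjusted p = 2.57e-18) for Camk2a and 4.00 ± 0.06 (SE, adjusted p = 1.04e-18) for Kalrn. Without cerebellar granule cells in the mean, these were 2.45, 1.91 and 2.01. Camkv (3.51), Homer3 (3.47) and Lrrc7 (3.45) came next, and were 1.26, 3.88 and 1.47 without cerebellar granule cells. Homer3 was at 32.9, 39.8 and 33.8 TPM in dentate gyrus granule cells and at 0.792 to 7.68 TPM in other neurons. The other genes called higher included Lrrtm4 at 110 TPM, Lrrtm1 at 132 TPM, Baiap2 at 342 TPM and Dlg3 at 271 TPM. Camk2d was the called gene that was lower without overlap, at 17.5, 34.3 and 40.7 TPM (-2.09 ± 0.15, SE, adjusted p = 6.24e-10). Camk4, Slitrk4 and Lrrtm3 were also called lower, but their libraries overlapped those of other neurons, and without cerebellar granule cells Camk2d alone was called.

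Layer V neurons held the most Nrgn and Homer1. Of the 42 genes, 13 were called higher and 1 lower against the other neurons (edgeR, at least 2-fold), beside 17.3% and 9.21% of all genes tested. With cerebellar granule cells left out of the mean, 7 were higher and 1 lower, beside 10.5% and 10.8%. Nrgn was above the other neurons by 6.10 ± 0.08 (log2, SE, adjusted p = 6.59e-19) and by 2.83 ± 0.08 without cerebellar granule cells, with a dentate gyrus mean of 3521 TPM against 4982 TPM. Homer1 was at 153, 157 and 189 TPM, and at 42.2 to 65 TPM in the 9 other neuronal libraries (2.13 ± 0.08, SE, adjusted p = 2.61e-13). Dlgap4 was at 244, 237 and 247 TPM, above all other neuronal libraries (1.34 ± 0.03, SE, adjusted p = 8.17e-16). It was 0.95 without cerebellar granule cells, which is under 2-fold. Homer3 was the gene called lower, at 0.927, 1.01 and 0.792 TPM (-3.31 ± 0.09, SE, adjusted p = 1.05e-15). Homer1 thereby made up 90.1% ± 0.80 (SD, n = 3) of the Homer sum in layer V neurons and Homer3 0.499%, against 53.3% and 30.1% in dentate gyrus granule cells. Dlgap2, Lrrtm1 and Lrrtm4 were called higher in layer V neurons (log2 fold changes 2.91, 1.12 and 1.15), and turned lower (-0.38, -0.66 and -0.75) once cerebellar granule cells were left out.

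Interneurons, whose dendrites mostly lack spines, had low levels of Cnksr2, Baiap2 and Ppp3ca and the highest level of Iqsec1. Of the 42 genes, 8 were called lower and 4 higher than in the other neurons (edgeR, at least 2-fold), beside 6.64% and 18% of all genes tested. With cerebellar granule cells left out, 14 were lower and 1 higher, beside 10.6% and 12.9%. Cnksr2 was at 24.2, 29.4 and 31 TPM, and at 142 TPM or more in every other neuronal library (-2.76 ± 0.07, SE, adjusted p = 3.03e-16). Baiap2 was at 22.9 to 31.8 TPM (-2.68 ± 0.10, SE, adjusted p = 1.98e-13) and Ppp3ca at 406 to 426 TPM (-2.23 ± 0.05, SE, adjusted p = 2.65e-16). Camk2b (-1.76), Iqsec2 (-1.49) and Dlg1 (-1.31) were lower as well without overlap. Homer1 and Camk4 were also called lower, with libraries that overlapped those of other neurons.

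Against dentate gyrus granule cells and layer V neurons alone, Nrgn was lower in interneurons by -4.58 ± 0.11 (log2, SE), Icam5 by -3.13 ± 0.10, Kalrn by -2.59 ± 0.08 and Camk2a by -2.54 ± 0.11. The averaged contrast with cerebellar granule cells had put Camk2a higher, at 1.19, and Lrrtm1 and Lrrtm4 also turned, from 1.38 and 1.12 to -0.37 and -0.79. Slc17a7, a marker of excitatory neurons, was at 3.67% of its dentate gyrus level in interneuron libraries, Prox1 at 8.33% and C1ql2 at 0.663%. Nrgn (5.57%), Baiap2 (7.67%) and Icam5 (7.77%) were below Prox1 but above Slc17a7 and C1ql2, and Camk2a was above each marker at 14.2%. Summed TPM of 4 hippocampal pyramidal neuron markers averaged 186 for either hippocampal cell type. The part of RNA from excitatory neurons in the interneuron levels was not tested. Iqsec1, the relative of Iqsec2, was highest in interneurons at 360, 349 and 371 TPM, and other neuronal libraries reached 186 TPM. Its log2 fold change was 0.91 ± 0.04 (SE, adjusted p = 3.05e-12), under 2-fold, and 1.07 ± 0.05 without cerebellar granule cells. Of the Iqsec sum, Iqsec1 held 87.5% ± 0.67 (SD, n = 3) in interneurons and Iqsec2 the larger share in dentate gyrus granule cells, 56.4%. Dlgap2 was called higher at 3.33 ± 0.07 (SE, adjusted p = 1.92e-17), with 44.7 TPM against 39 TPM in dentate gyrus granule cells, and was not called without cerebellar granule cells (0.10). The part of the oligodendrocyte RNA in these libraries was not tested.

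Between neurons and glia, most of the 42 genes were higher in neurons, and the average over 4 neuronal types depended on cerebellar granule cells. Of the 42 genes, 28 were called higher in neurons and 2 lower (edgeR, at least 2-fold), beside 15.9% and 30.3% of all genes tested. The median log2 fold change was 1.27 over the 42 genes and -0.18 over all genes. A further 8 were higher and 3 lower under 2-fold, and Dlgap2 was not called. With cerebellar granule cells left out, 35 were higher and 1 lower, beside 19.6% and 27.6%, and the median was 1.97. Nrgn changed from -1.22 ± 0.07 to 1.46 ± 0.07 (log2, SE), Kalrn from -0.41 to 1.25, Icam5 from -0.37 to 1.87 and Camk2a from -0.16 to 2.42. Homer3 kept its direction, at -2.46 ± 0.04 with and -2.45 ± 0.05 without cerebellar granule cells. This average did not hold for every neuronal type. Homer3 was at 35.5 TPM in dentate gyrus granule cells, above astrocytes (29.6 TPM) and microglia (21.9 TPM), and at 0.908 TPM in layer V neurons. Of the 2 genes called lower, 0 had libraries without overlap.

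The 6 genes furthest above glia without overlap were Slitrk4 (3.78 ± 0.07, SE, adjusted p = 1.6e-18), Camk4 (3.01 ± 0.07, SE, adjusted p = 1.37e-17), Slitrk1 (2.94), Lrrtm2 (2.94), Cnksr2 (2.88) and Lrrtm3 (2.87). Slitrk1 was at 28.7 to 67.6 TPM in neurons and 2.48 to 8.79 TPM in glia. Lrrtm2 was at 18.1 to 53 TPM in neurons and 1.22 to 8.57 TPM in glia. Of the Dlg genes, Dlg2 (PSD-93) was at 119 to 207 TPM in neurons and 11.6 to 35.7 TPM in glia, while Dlg1 overlapped, at 39.6 to 156 TPM and 34.7 to 71.2 TPM. Dlg4 and Dlgap1 did not overlap between neurons and glia either (1.84 and 2.25).

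Set against layer V neurons, glial levels ran from the range of the neuronal markers to above the layer V level, with many in between. In astrocytes, Nrgn (11.3%), Cnksr2 (14.9%), Baiap2 (16.9%) and Lrrtm1 (17.4%) were within the 10.3% to 18% of Snap25, Syt1, Rbfox3 and Slc17a7. Fezf2, a marker of layer V neurons, was above that range in astrocytes at 23.9%. A further 29 genes lay between 18% and 50% of the layer V level, and 9 were at 50% or more. In microglia 16 genes were at or below the highest marker (14%) and 6 were at 50% or more. Camk2g was at 246, 236 and 237 TPM in astrocytes, equal to 100% of the layer V mean, and at 20.8% in microglia. Gphn stood at 98.4% and Dlg1 at 81.1% in astrocytes, followed by Homer2 (79.4%), Iqsec1 (71.8%) and Ppp1r9b (66%), which encodes the actin-binding phosphatase-1 partner spinophilin. Homer3 was at 29.7, 28.9 and 30.2 TPM in astrocytes and 22.8, 21.4 and 21.5 TPM in microglia, where layer V neurons had 0.908 TPM. In microglia the others at 50% or more were Ppp1r9b (71.2%), Iqsec2 (60.5%), Shank2 (56.5%), Camk2d (55.2%) and Shank3 (52.3%). Dlgap4 was nearly as high, at 48.2%, and made up 58.1% ± 2.0 (SD, n = 3) of the Dlgap sum in microglia. The level of neuronal markers is given beside these values, and its part in each was not tested.

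**Figure D5:**
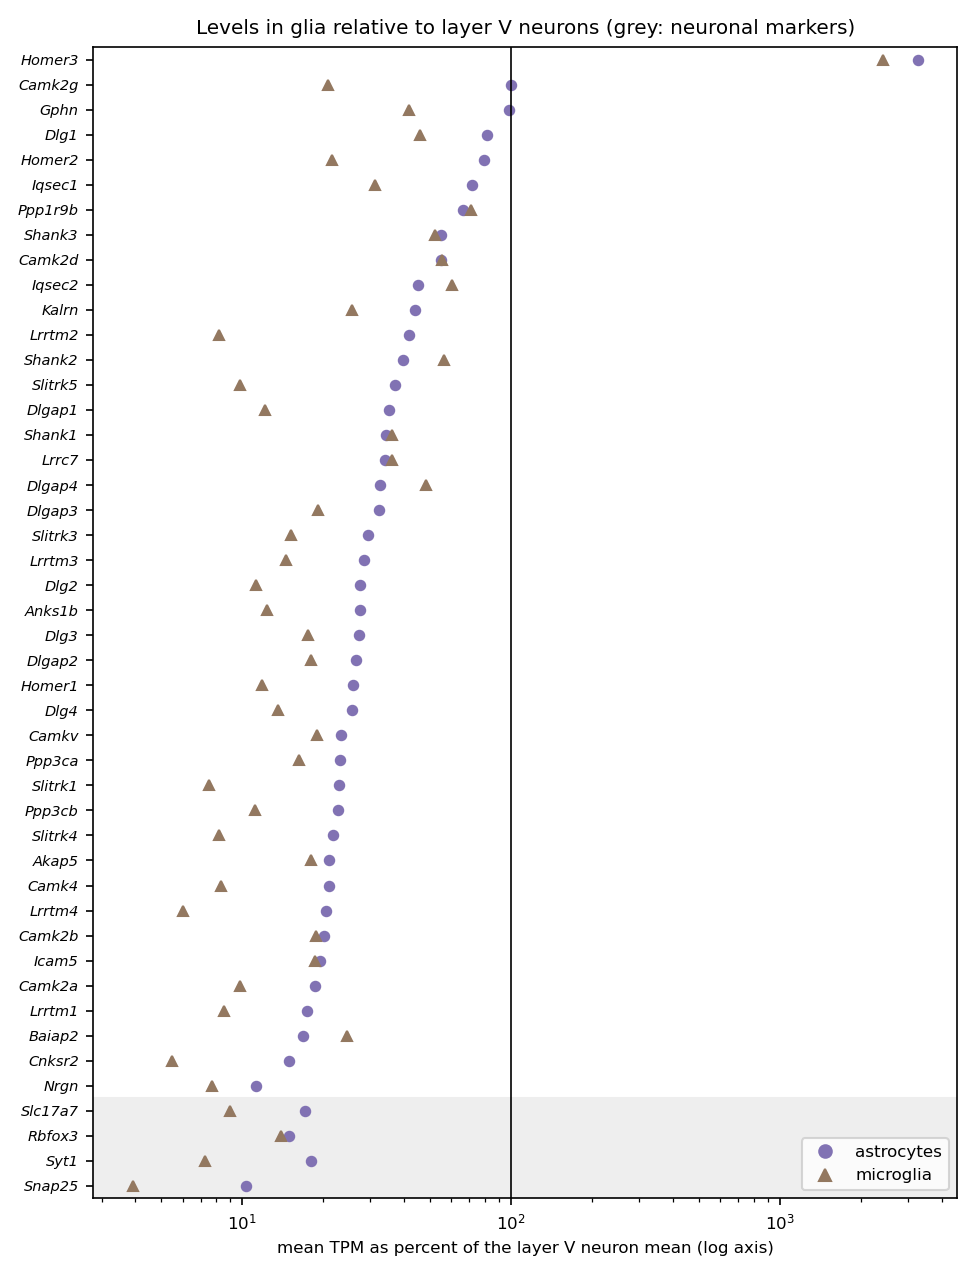
Mean TPM in astrocytes (circles) and microglia (triangles) as percent of the layer V neuron mean (log axis) for 42 genes, with 4 neuronal markers in the grey band. The markers lie between 3.91% and 18%, Camk2g reaches 100% in astrocytes, and Homer3 exceeds the layer V level in both.

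Between the glial types, 21 of the 42 genes were called higher in astrocytes than in microglia and 0 lower (edgeR, at least 2-fold), beside 23.1% and 21.1% of all genes tested. Another 3 genes, Shank2 (-0.44), Baiap2 (-0.41) and Dlgap4 (-0.20), were lower by less than 2-fold at an adjusted p of at most 0.05, and the same 3 at an unadjusted p of at most 0.05. DESeq2 also called 0 genes lower. The neuronal markers were themselves higher in astrocyte libraries, by 1.45 ± 0.09 (log2, SE) for Snap25, 1.41 ± 0.06 for Syt1 and 1.01 ± 0.08 for Slc17a7, but by 0.08 ± 0.07 for Rbfox3. Many of the 21 genes lay in that range, such as Dlg2 (1.31), Dlg4 (1.08), Camk2a (1.01), Anks1b (1.16), Ppp3cb (1.18), Homer1 (1.23) and Slitrk3 (1.02). Above it were Camk2g (2.41 ± 0.06, SE, adjusted p = 2.25e-16), Lrrtm2 (2.34 ± 0.09, SE, adjusted p = 7.21e-14), Homer2 (2.11 ± 0.11, SE, adjusted p = 4.39e-12) and Slitrk5 (1.86 ± 0.08, SE, adjusted p = 5.01e-13). Gphn (1.78) and Lrrtm4 (1.71) followed. The differences between Camk2g and the markers were not tested. Akap5, Camkv and Camk2b were higher in astrocytes by less than 2-fold, and Icam5, Camk2d, Shank1, Ppp1r9b and Iqsec2 were not called.

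Related genes outside the 42 were counted from 4 lists, also chosen by function with earlier results of these data known. In cerebellar granule cells against other neurons, 18 of 41 other excitatory scaffold and signalling genes were lower and 8 higher. Rasgrf2, a calcium-dependent exchange factor for Ras, fell furthest (-9.92), followed by Begain (-6.98), whereas Lin7a, a partner of the Cask adaptor, was higher by 3.58 and Mpp3 by 2.31. Of 18 other postsynaptic adhesion genes, 8 were lower and 0 higher (5 higher and 3 lower under 2-fold), led by Elfn1 (-9.25) and Lrfn2 (-7.66). Of 20 other calcium-calmodulin kinase and phosphatase genes, 7 were lower and 2 higher. Camk1g (-6.58) and Pcp4 (-5.48), a calmodulin-binding peptide, were lowest, and Camkk2, the kinase that activates Camk4, was highest (1.74), followed by Ppp1cc (1.02). Of 10 inhibitory postsynapse genes, 4 were lower and 0 higher (4 lower and 2 higher under 2-fold), led by Insyn2a (-6.19) and Shisa7 (-5.02). Iqsec3 and Insyn1 were the other 2. Over all genes tested, 29.1% were lower and 14.5% higher in this comparison.

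In neurons against glia, 20 of the 41 scaffold and signalling genes were higher and 1 lower, with Lin7a (3.57) and Shisa6 (3.07) highest and Dbn1, which encodes the actin-binding protein drebrin, lower (-1.05), beside 15.9% higher and 30.3% lower of all genes tested. Of the 18 adhesion genes 11 were higher, led by Flrt3 (2.76) and Il1rapl1 (2.59). Of the 20 kinase and phosphatase genes 8 were higher, led by Prkce (3.17) and Ppp3r1 (2.33), the regulatory subunit of calcineurin, and 3 lower, of which Camk1 (-1.53) and Ppp1r1b (-1.47) were lowest.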

How the data were processed

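RiboTag mRNA libraries (22, of which 18 were used, 1 per replicate and batch 1 where both batches held a replicate) were analysed. Trimming by cutadapt 3.5 and quantification by kallisto 0.46.2 against Gencode transcripts were done by the authors. The deposited tables hold estimated counts and TPM per transcript. Both were summed per gene over all its transcripts, with or without an annotated coding sequence, and estimated counts were rounded. edgeR 4.0.16 (TMM, filterByExpr, quasi-likelihood test, R 4.3.3) was fitted to all 6 cell types in 1 model. Of 55385 genes, 20524 were tested, and a gene was called at a Benjamini-Hochberg adjusted p of at most 0.05 and at least 2-fold. Each SE is the absolute log2 fold change divided by the square root of the F statistic of the test. It is not a directly estimated standard error and can be too small for large folds at low counts. Libraries held 38270477 to 71440915 estimated counts. P-values measure the spread between these libraries, which the methods call biological replicates.

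Counts were simulated with the same mean per gene in all cell types, except for 200 genes changed in layer V neurons. In layer V against other neurons (19483 genes), edgeR called 91 of 95 genes changed by 1.5 on the log2 scale. It called 94 of 96 changed by 3, with 2 false calls. limma called 68 and 78 of these, with 1 false call. Far more genes were called in the real comparisons, so error rates in that setting were not tested. Exon shares used Gencode vM21 models on GRCm38, which matched 377 of 389 transcripts. Per comparison, up to 6 called genes in each direction whose libraries did not overlap were named with statistics. One result of the inhibitory postsynapse list, in neurons against glia, is not reported here. Exons were chosen after their values were seen. Members and lists were chosen with earlier results of these data known. Layer V replicate 1 is labelled female in batch 1 and male in batch 2. Alternatives comprised DESeq2 1.42.0, limma 3.58.1 on log2(TPM + 1), other filters and normalizations, batches, and each library left out.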

Additional observations from a re-analysis of the deposited data

How the results depend on the processing

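Cerebellar granule cells decided several averages. When that type was left out of the contrast, a setting added after seeing the data, genes called lower in neurons against glia went from 2 to 1 and those lower in dentate gyrus granule cells from 4 to 1. Genes called higher in layer V neurons went from 13 to 7, and in interneurons those higher went from 4 to 1 and those lower from 8 to 14. Among called genes, signs turned for Nrgn in neurons against glia (1.46), for Dlgap2 (-0.38), Lrrtm1 (-0.66) and Lrrtm4 (-0.75) in layer V neurons, and for Camk2a (-2.54), Lrrtm1 (-0.37) and Lrrtm4 (-0.79) in interneurons. Among genes under 2-fold in neurons against glia, Camk2a (2.42), Icam5 (1.87) and Kalrn (1.25) turned as well. In batch 1 libraries alone, which hold neither interneurons nor microglia, 4 genes were lower in neurons against glia and 2 in layer V neurons, and in neurons against glia Homer2, called at 2-fold, turned to -0.27, and Camk2g (-0.32), Camkv (-0.28) and Lrrc7 (-0.21), under 2-fold, also turned. By limma on log2(TPM + 1) or log2(TPM + 0.1), 1 gene was lower in neurons against glia and 2 in layer V neurons. With each library left out, counts of genes called higher ran from 28 to 28 in neurons against glia, 19 to 20 in dentate gyrus granule cells, 13 to 14 in layer V neurons, 7 to 8 in cerebellar granule cells, 4 to 4 in interneurons and 18 to 21 in astrocytes against microglia. Replicate numbers were not used as pairs in the main fit. Correlations of deviations ran from -0.0999 to 0.109 (median 0.0391) between same-numbered libraries. Between others they ran from -0.116 to 0.132 (median -0.0202). These values cannot tell weak pairing from none. With the replicate block, 28 genes were higher in neurons against glia, and 128 of 128 named gene results kept their call and direction. DESeq2 kept 125 of the 128, limma on log2(TPM + 1) kept 108 and limma on log2(TPM + 0.1) kept 114. In batch 1 libraries alone, the interneuron contrast and that of astrocytes against microglia could not be made, so not all 128 results were covered. Glia there were astrocytes only. Of the results covered, 84 were kept, 10 were weaker and 1 was reversed. Across all 32 alternatives, 43 of the 128 results were weaker and 8 were reversed in at least 1 setting.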
